A study of Mus musculus with 4 samples.

Results

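The adipocyte genes described here are 10 genes that mark fat cells, chosen by symbol: the secreted products Cfd, Adipoq, Retn and Lep, the lipid droplet proteins Plin1, Plin4 and Cidec, the lipid and carbon dioxide handling proteins Fabp4 and Car3, and the transcription factor Pparg. All 10 were found among the 52535 gene models of each file. Their RNA was counted by sequencing in mouse pancreatic duct cells (strain C57BL/6), in 2 KO-labelled libraries (KO 1 and KO 2) and 2 WT libraries (WT 1 and WT 2). The KO-labelled genotype is Lats1 fl/fl; Lats2 fl/fl; Sox9-CreER, which combines floxed alleles of both LATS kinases of the Hippo pathway with a Cre recombinase that is active, after tamoxifen, in cells that express Sox9. The WT libraries are labelled wild type, and all libraries share the strain, the tissue and the cell type label. The sources used here give no age, no time after Cre induction and no way of isolating duct cells. They do not say whether each library is a different animal, so the p-values reflect only the spread among these libraries, which may be technical.

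White adipocytes store triglyceride in 1 large droplet coated by perilipins and release hormones into the blood. PPAR gamma, the product of Pparg, is the nuclear receptor that drives their differentiation and switches on much of their gene programme, including adiponectin and droplet proteins. Adipsin, the product of Cfd, is the serine protease complement factor D, which cleaves factor B and so starts the alternative complement pathway. Fat lies within and around the mouse pancreas. Fabp4 and Pparg are also expressed by macrophages, and Fabp4 by capillary endothelium.

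Libraries held 5082636 and 5925601 counts in KO 1 and KO 2, against 3566387 and 4735183 in WT 1 and WT 2. Levels are CPM, the count relative to the library total after scaling with TMM factors. A floor of 3 counts corresponded to 0.604 and 0.486 CPM in KO 1 and KO 2, and to 0.824 and 0.674 CPM in WT 1 and WT 2. Floors and the 95% exact Poisson and binomial intervals given below cover counting error only. Neither targeted gene was lower in the KO-labelled libraries: Lats1 stood at 70.0 and 79.2 CPM, against 50.8 and 65.6 CPM in WT (edgeR adjusted p = 0.172), and Lats2 at 163 and 121 CPM, against 114 and 102 CPM in WT (edgeR adjusted p = 0.127). These counts cover whole gene models and do not check a deletion of some exons, so the groups are named by their labels, and each direction below rests on those labels. Duct markers were present in all libraries, with a summed level over 11 genes of 15260 and 15430 CPM in KO 1 and KO 2 and 2117 and 2607 CPM in WT 1 and WT 2. Acinar markers (11 genes) summed to 158 and 3611 CPM in KO 1 and KO 2 and to 47370 and 84590 CPM in WT 1 and WT 2. The liver transcript Alb had 16 and 7 counts in KO 1 and KO 2, against 21060 in WT 1 and 619 in WT 2.

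Cfd, Adipoq and Cidec were present in both KO-labelled libraries and at or near 0 counts in both WT libraries, whereas Fabp4 stood at almost the same level in all 4. The upstream sequences of genes that differed in this way are shown first, together with those of Lep, which had no count in any library, and Plin1, whose groups overlapped. Each runs 5′ to 3′ over the 250 bases before the RefSeq transcription start (GRCm38.p6), and capitals mark matches to TTNNGCAA, the core recognised by CCAAT/enhancer binding proteins, on either strand.
Cfd: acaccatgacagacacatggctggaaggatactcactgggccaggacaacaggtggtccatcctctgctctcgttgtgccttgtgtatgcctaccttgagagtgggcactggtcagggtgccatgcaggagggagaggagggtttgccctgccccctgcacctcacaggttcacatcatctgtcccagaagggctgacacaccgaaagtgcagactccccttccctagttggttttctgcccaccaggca
Adipoq: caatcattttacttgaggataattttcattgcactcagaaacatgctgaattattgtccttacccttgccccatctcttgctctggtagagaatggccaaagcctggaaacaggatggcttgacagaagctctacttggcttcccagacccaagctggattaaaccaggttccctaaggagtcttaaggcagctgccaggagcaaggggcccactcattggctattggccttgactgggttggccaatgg
Cidec: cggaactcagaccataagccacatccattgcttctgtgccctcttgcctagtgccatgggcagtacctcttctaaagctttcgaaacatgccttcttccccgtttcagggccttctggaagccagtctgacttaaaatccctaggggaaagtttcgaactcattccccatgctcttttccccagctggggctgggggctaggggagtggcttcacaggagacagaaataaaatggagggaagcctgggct
Lep: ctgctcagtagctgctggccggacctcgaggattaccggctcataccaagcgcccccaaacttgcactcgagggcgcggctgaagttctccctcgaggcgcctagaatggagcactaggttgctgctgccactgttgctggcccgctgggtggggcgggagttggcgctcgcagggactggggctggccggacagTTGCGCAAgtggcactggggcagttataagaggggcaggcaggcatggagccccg
Plin1: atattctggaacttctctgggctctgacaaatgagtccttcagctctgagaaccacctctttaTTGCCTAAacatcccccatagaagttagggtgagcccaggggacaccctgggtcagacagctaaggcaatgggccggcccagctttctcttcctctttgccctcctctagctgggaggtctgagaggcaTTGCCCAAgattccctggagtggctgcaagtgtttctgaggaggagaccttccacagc
The Cfd sequence lies at chr10:79890603-79890852 (plus strand), Adipoq at chr16:23146286-23146535 (plus), Cidec at chr6:113435761-113436010 (minus), Lep at chr6:29059971-29060220 (plus) and Plin1 at chr7:79732777-79733026 (minus).

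Of the 10 genes, 8 have a promoter in the RefSeq table, with Fabp4 and Car3 the missing entries. On both strands, TTNNGCAA was found in 9.56% of all 32851 promoters of this length, AGGTCA (the half-site of nuclear receptors such as PPAR gamma) in 14.0%, AGGTCA repeated with 1 base between in 0.0335% and TATAAA in 12.4%. The windows of Cfd, Adipoq, Retn and Plin4, and the one at the outermost start of Cidec, held none of these letters. Lep held 1 palindromic TTNNGCAA match, at -55 to -48 from the start, and Plin1 held 2, at -187 to -180 and -58 to -51. A further Cidec start, 996 bases inside the model, had 1 match at -198 to -191. Pparg had AGGTCA before 2 of its 3 starts, at -28 to -23 and at -9 to -4, with TATAAA also before the second, and 2 TTNNGCAA matches before the third. The pair of AGGTCA letters 1 base apart was found in none of the members' windows.

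Of the secreted products, adipsin differed most. Cfd (mm10, chromosome 10, 79890853 to 79892655, plus strand) had 253 counts in KO 1 and 155 in KO 2, and 0 in WT 1 and 0 in WT 2. This corresponds to 50.9 CPM (95% interval 44.8 to 57.6) in KO 1 and 25.1 CPM (21.3 to 29.4) in KO 2, or 38.0 ± 18.3 CPM in KO-labelled libraries (SD, n = 2). Both KO-labelled libraries were far above the WT libraries, and KO 1 was 2.03 times KO 2 (95% interval 1.66 to 2.49). Against a floor of 3 counts over the WT group, Cfd was at least 98.7-fold higher in KO-labelled libraries (edgeR adjusted p = 0.000623). In these bulk libraries fewer cells of a type and less RNA per cell cannot be told apart. Of 13990 genes that could be tested, 28 (0.200%) had no count in either WT library, and among these Cfd had the most counts in KO-labelled libraries. Such genes passed the filter on low counts only through the KO-labelled libraries, so nothing is read from this share or rank.

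Adiponectin, a hormone that raises insulin sensitivity, showed the same pattern at a lower level. Adipoq (chromosome 16, 23146536 to 23158028, plus strand) had 32 counts in KO 1 and 22 in KO 2, and 0 in each WT library. The levels were 6.44 CPM (4.41 to 9.09) and 3.56 CPM (2.23 to 5.39) in KO 1 and KO 2. The groups did not overlap, and Adipoq was at least 13.1-fold higher in KO-labelled libraries (edgeR adjusted p = 0.00246). It was rank 16 of those 28 genes by counts in KO-labelled libraries, and again nothing is read from the rank.

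Resistin and leptin, the other hormones, gave few or no counts. Retn (chromosome 8, 3655770 to 3660110), which mouse adipocytes secrete, had 9 counts in KO 1 and 2 in KO 2, and 1 in WT 1 and 0 in WT 2. The pooled ratio of KO-labelled to WT counts was 7.98 with a 95% exact binomial interval of 1.16 to 344. The gene did not pass the filter on low counts. In a fit without that filter its log2 change was 2.87 ± 1.63 SE and did not pass (edgeR adjusted p = 0.211). KO 2 lay at 0.324 CPM, under the floor and close to the 0.275 CPM of WT 1. Lep (chromosome 6, 29060220 to 29073877), the satiety hormone, had 0 counts in all 4 libraries and could not be compared.

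**Figure D1:**
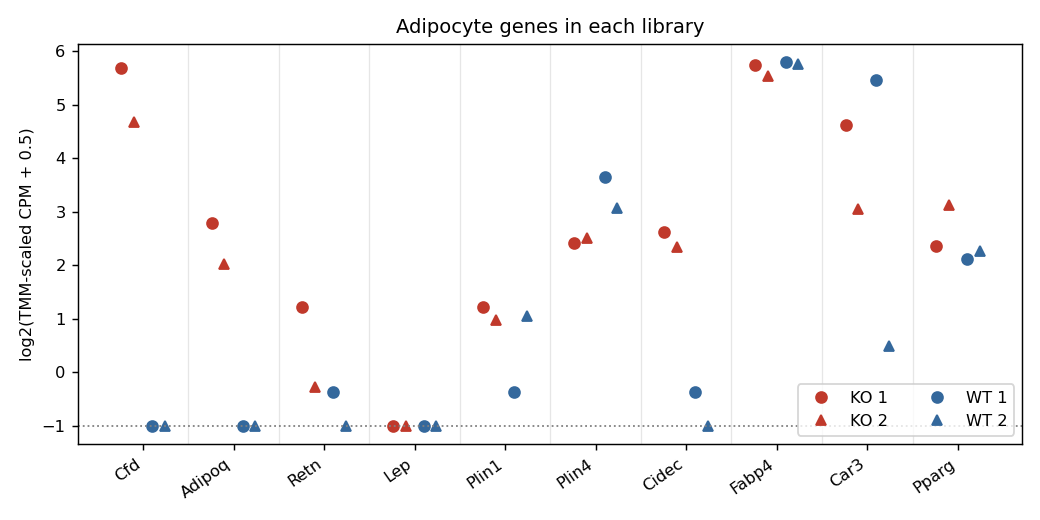
Level of each of the 10 genes in each library as log2(TMM-scaled CPM + 0.5), with KO-labelled libraries in red and WT libraries in blue, circles for replicate 1 and triangles for replicate 2. The dotted line marks 0 counts: both WT libraries lie on it for Cfd, Adipoq and Lep, while the 4 libraries lie together for Fabp4.

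Among the lipid droplet proteins, Cidec rose, Plin4 did not pass and Plin1 was too low to test. Cidec (chromosome 6, 113424634 to 113435760, minus strand), which fuses droplets in white fat cells, had 28 counts in KO 1 and 28 in KO 2, and 1 in WT 1 and 0 in WT 2. Its levels were 5.64 and 4.53 CPM in KO 1 and KO 2, and 0.275 and 0 CPM in WT 1 and WT 2. The pooled ratio was 40.6 with a 95% exact binomial interval of 7.0 to 1630 (edgeR adjusted p = 0.00229). The fitted log2 change of 5.08 ± 0.89 SE turned on that 1 count: it was 7.73 without WT 1 and 4.09 without WT 2.

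Perilipin 1, which guards the droplet against lipases and is held to be among the most specific adipocyte proteins, did not show this pattern. Plin1 (chromosome 7, 79720218 to 79732903) had 9 counts in KO 1 and 9 in KO 2, and 1 in WT 1 and 7 in WT 2. WT 2, at 1.57 CPM, lay between KO 1 at 1.81 CPM and KO 2 at 1.46 CPM, so the groups overlapped. Plin1 did not pass the filter, and without it the log2 change was 0.83 ± 0.96 SE (edgeR adjusted p = 0.611). The pooled ratio of 1.63 had an interval of 0.675 to 4.34.

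Plin4, a perilipin of small and newly formed droplets, pointed the other way. Plin4 (chromosome 17, 56100591 to 56109803) had 24 and 32 counts in KO 1 and KO 2, and 44 and 35 in WT 1 and WT 2. Both KO-labelled libraries, at 4.83 and 5.18 CPM, were lower than the WT libraries, at 12.1 and 7.87 CPM. The log2 change of -0.98 ± 0.38 SE did not pass (edgeR adjusted p = 0.0673), though it did with upper quartile scaling (-1.18, edgeR adjusted p = 0.0343). Only the edge of the Plin4 model overlaps Hdgfl2 (56079634 to 56100607), which lies on the opposite strand. The use of strand in counting is not given in the sources used here.

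Fabp4, the fatty acid binding protein of adipocytes, was the most abundant of the 10 in WT libraries and did not pass. Fabp4 (chromosome 3, 10204088 to 10208576, minus strand) had 263 and 285 counts in KO 1 and KO 2, and 200 and 239 in WT 1 and WT 2. The levels were 52.9 and 46.1 CPM in KO-labelled libraries and 55.0 and 53.7 CPM in WT libraries. The KO-labelled libraries lay slightly below the WT ones, with a log2 change of -0.13 ± 0.18 SE (edgeR adjusted p = 0.586). The pooled ratio of 0.906 had an interval of 0.797 to 1.03. In WT libraries, 439 Fabp4 counts stood beside 0 counts of Cfd, 0 of Adipoq, 1 of Cidec, 8 of Plin1 and 79 of Plin4.

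Car3, carbonic anhydrase 3, which fat, liver and muscle express, was set by 1 library. Car3 (chromosome 3, 14863512 to 14872523, plus strand) had 119 and 48 counts in KO 1 and KO 2, and 159 and 4 in WT 1 and WT 2. The levels were 23.95 and 7.77 CPM in KO-labelled libraries and 43.7 and 0.899 CPM in WT libraries. WT 1 was above both KO-labelled libraries and WT 2 below both, so the groups overlapped, and the log2 change of -0.48 ± 2.00 SE did not pass (edgeR adjusted p = 0.88). Without WT 1 Car3 was higher in KO-labelled libraries, with a log2 change of 4.10 (edgeR adjusted p = 0.0317). Without KO 2 the log2 change was 0.15 (edgeR adjusted p = 0.98), and with limma-voom it was 1.21 (limma adjusted p = 0.502).

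Liver transcripts stood apart in the same library. A list of 10 hepatocyte genes, written after these values were seen and therefore not tested, summed to 9.46 and 13.3 CPM in KO 1 and KO 2, against 8656 CPM in WT 1 and 240 CPM in WT 2, and none of the 10 was at 0 in all libraries. Some genes of the adipocyte lists that liver also expresses were highest in WT 1, and others, such as Cebpa, Fasn and Plin2, were not. Pck1, which makes glycerol backbones in fat and glucose in liver, had 15 and 6 counts in KO 1 and KO 2, and 773 and 1 in WT 1 and WT 2. Thrsp, a lipogenic factor, had 5 and 3 counts in KO 1 and KO 2, and 268 and 18 in WT 1 and WT 2. For Rbp4, the retinol carrier, the counts were 6 and 13 in KO 1 and KO 2, and 387 and 17 in WT 1 and WT 2. The part of liver RNA in the Car3 value was not tested, and these genes were picked after their values were seen. The 12 skeletal muscle genes summed to 18.3 and 10.9 CPM in KO 1 and KO 2 and 18.1 and 28.1 CPM in WT 1 and WT 2, with Myh4 at 0 in all libraries. Of 3 tested, 1 rose and 1 fell, against 22.0% and 20.2% of all tested genes. Ckm had 1 count in each KO-labelled library, and 34 and 33 in WT 1 and WT 2 (log2 change -5.35, edgeR adjusted p = 0.000372). Acta1 had 35 and 23 counts in KO 1 and KO 2, and 5 in each WT library (log2 change 2.08, edgeR adjusted p = 0.0208).

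**Figure D2:**
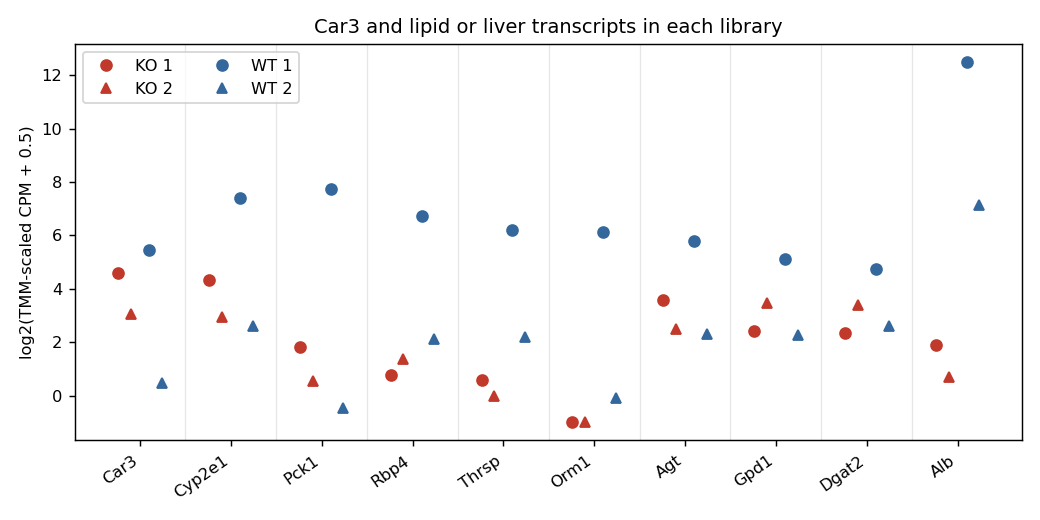
Level of Car3, 8 genes of the adipocyte lists and the liver transcript Alb in each library as log2(TMM-scaled CPM + 0.5), with KO-labelled libraries in red and WT libraries in blue. The genes beside Car3 were picked for being highest in WT 1 (blue circles), so that order is no finding, and other liver-expressed genes of the lists, such as Cebpa, are not highest there. Car3 is at 43.7 CPM in WT 1 and 0.899 CPM in WT 2.

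Pparg (chromosome 6, 115360951 to 115490399, plus strand) was low in all libraries. It had 23 and 51 counts in KO 1 and KO 2, and 14 and 19 in WT 1 and WT 2, or 4.63 and 8.26 CPM against 3.85 and 4.27 CPM. The groups did not overlap, yet KO 1 lay within 1 CPM of WT 2, and the log2 change of 0.67 ± 0.45 SE did not pass (edgeR adjusted p = 0.263). Unlike Cfd and Adipoq, Pparg was lower in KO 1 than in KO 2, with a ratio of 0.561 (95% exact binomial interval 0.327 to 0.934). Gm44079, a model on the opposite strand within Pparg, had 0 counts.

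In all, 7 of the 10 genes passed the filter on low counts. Of these 3 rose, 0 fell and 4 did not pass, where 42.2% of all tested genes passed, 22.0% as rises and 20.2% as falls (edgeR, Benjamini-Hochberg adjusted p under 0.05). Cfd, Adipoq and Cidec passed the filter only through the KO-labelled libraries, so nothing is read from their share. Groups did not overlap for 4 of the 7 genes in the higher direction and for 2 in the lower direction, where 37.4% and 36.8% of all tested genes did so. Summed over the 10 genes, levels were 153 and 102 CPM in KO 1 and KO 2, and 115 and 68.3 CPM in WT 1 and WT 2. Fabp4 gave 52.9 and 46.1 CPM of these sums in KO 1 and KO 2, and 55.0 and 53.7 CPM in WT 1 and WT 2. Car3 gave a further 43.7 CPM in WT 1.

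Divided by the length of the principal transcript in GENCODE M21, levels ordered the genes differently in the groups. In KO-labelled libraries Fabp4, at 55.3 ± 5.36 CPM per kb (SD, n = 2), and Cfd, at 41.2 ± 19.8 CPM per kb, came first and overlapped. Car3 (9.45 ± 6.81 CPM per kb), Adipoq (3.87 ± 1.58), Pparg (3.65 ± 1.45) and Cidec (2.96 ± 0.453) followed, and each overlapped the next. Retn (0.937 ± 0.923 CPM per kb), Plin4 (0.870 ± 0.043) and Plin1 (0.580 ± 0.0890) came below, and Retn, at 1.59 in KO 1 and 0.284 in KO 2, overlapped both of the others. In WT libraries Fabp4 led with 60.7 ± 0.984 CPM per kb, above Car3 (13.3 ± 18.0), Pparg (2.30 ± 0.169) and Plin4 (1.73 ± 0.519). Car3 overlapped Pparg, Plin4 and Plin1 there, since Car3 was at 26.0 CPM per kb in WT 1 and 0.535 CPM per kb in WT 2. In WT libraries Plin1 stood at 0.328 ± 0.326 CPM per kb, above Retn and Cidec, which it overlapped. Per length, Cfd was at 55.2 CPM per kb beside 59.1 for Fabp4 in KO 1, but at 27.2 beside 51.5 in KO 2.

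Ratios to Adipoq were compared between the KO-labelled libraries, and Pparg was the 1 gene of 8 whose intervals did not overlap. Counts of Cfd per count of Adipoq were 7.91 (95% exact binomial interval 5.46 to 11.8) in KO 1 and 7.05 (4.49 to 11.6) in KO 2, and intervals overlapped. Cidec per Adipoq was 0.875 (0.508 to 1.5) and 1.27 (0.702 to 2.33), and Plin1 per Adipoq 0.281 (0.118 to 0.603) and 0.409 (0.166 to 0.924), again with overlapping intervals. Pparg per Adipoq was 0.719 (0.402 to 1.27) in KO 1 and 2.32 (1.38 to 4.01) in KO 2, and these intervals did not overlap. Relative to Adipoq, Fabp4 stood at 8.22 (5.68 to 12.3) and 13.0 (8.39 to 21.0), with overlapping intervals. Car3 per Adipoq was 3.72 (2.5 to 5.68) and 2.18 (1.29 to 3.8), and the intervals of Plin4 and Retn overlapped as well. These ratios describe counts in each library and are not per length.

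By a distance that depends on abundance as well as direction, the genes nearest to Cfd over the 4 libraries were not among the 10. Likeness was the Euclidean distance between profiles of log2(CPM + 0.5), each centred on its mean. The 5 nearest genes were taken after passing over unnamed models (Gm, Rik and accession-like names). Ranks given below are among all 13989 other tested genes. Nearest of the named genes was Mmp13, a collagenase, at a distance of 0.12, with 229 and 155 counts in KO 1 and KO 2 and 0 in each WT library. Col8a1, a collagen chain, was at 0.50, the chemokine receptor Ccr1 at 0.55, the acute-phase protein Saa3 at 0.71 and the myeloid receptor Trem1 at 0.76. Adipoq, at 2.78, was rank 122 and Cidec, at 3.10, rank 181. With 0 counts in WT the constant of 0.5 sets the WT level, so distances to genes of other abundance reflect that abundance. The distance of Adipoq, also at 0 counts in WT, mainly reflects its lower level in KO-labelled libraries. The ranks therefore do not show that its pattern differs from that of Cfd.

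Beyond the 10, 76 further adipocyte genes in 6 lists split in both directions. Of 64 tested, 16 (25%) rose, 11 (17.2%) fell and 37 did not pass, against 22.0% and 20.2% of all tested genes. Their median log2 change was -0.19, against -0.01 over all tested genes. The number that fell was lower without KO 1, KO 2 or WT 1 and higher without WT 2. Each of these fits leaves 1 library in a group, and fewer of all genes passed in each of them. Neither the share that rose nor the share that fell stood far from the background. Counts for each list below stand beside the same shares of all tested genes.

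In the lipid droplet and lipolysis list, 4 of 9 tested genes rose and 2 fell. Plin2, a droplet coat protein of many cell types, stood at 254 and 216 CPM in KO 1 and KO 2, against 32.2 and 22.0 CPM in WT 1 and WT 2 (8.66-fold, edgeR adjusted p = 3.11e-05). Abhd5, the activator of adipose triglyceride lipase, was at 30.9 ± 0.461 CPM in KO-labelled and 10.1 ± 2.48 CPM in WT libraries (SD, n = 2), and rose (log2 change 1.63 ± 0.27 SE, edgeR adjusted p = 0.0017). G0s2, an inhibitor of that lipase, fell, at 4.22 ± 0.0123 CPM against 16.3 ± 4.93 CPM in WT (log2 change -1.94 ± 0.36 SE, edgeR adjusted p = 0.00323). Mgll, which cleaves monoglycerides, fell, with a log2 change of -0.74 ± 0.24 SE (edgeR adjusted p = 0.0392), a call lost whichever of the 4 libraries was left out (edgeR adjusted p of 0.0846 to 0.185). Mgll also did not pass with total counts only (edgeR adjusted p = 0.0574), without the filter on low counts (edgeR adjusted p = 0.0805) or with DESeq2 (Wald test adjusted p = 0.1). Among genes of this list too low to test, Fitm1 had 0 and 1 counts in KO 1 and KO 2 and 0 in each WT library, and Plin5 had 6 and 3 counts against 4 and 2 in WT. Cidea had 2 and 7 counts in KO 1 and KO 2, and 10 and 3 in WT 1 and WT 2. Pnpla3 had 1 count in each KO-labelled library and 0 in each WT library.

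In the uptake list, 4 of 11 tested genes rose and 1 fell. Lpl, the lipase that frees fatty acids from lipoproteins and that macrophages also make, was at 440 and 283 CPM in KO 1 and KO 2, against 42.6 and 58.0 CPM in WT 1 and WT 2 (log2 change 2.84 ± 0.27 SE, edgeR adjusted p = 0.000167). Cav2, a caveolin, was at 50.3 ± 5.94 CPM against 18.7 ± 2.41 CPM in WT (edgeR adjusted p = 0.00131). Slc2a4, the insulin-responsive glucose transporter GLUT4, fell, with 8 and 5 counts in KO 1 and KO 2 and 41 and 19 in WT 1 and WT 2 (log2 change -2.67 ± 0.65 SE, edgeR adjusted p = 0.0111). Leaving out WT 1 gave -1.81 (edgeR adjusted p = 0.115) and leaving out KO 2 gave -2.21 (edgeR adjusted p = 0.0895), so the call was lost in both cases. In the synthesis list, 1 of 14 rose and 0 fell. The 1 gene, Me1, a source of NADPH, had a log2 change of 0.84 ± 0.22 SE (edgeR adjusted p = 0.0162), a call lost when WT 2 or KO 2 was left out (edgeR adjusted p = 0.0983 and 0.0858).

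Of 11 transcription factors, 2 rose and 4 fell. Both risers act with PPAR gamma in fat cell differentiation, but which cells carried their RNA here was not tested. Cebpb was at 99.4 and 180 CPM in KO 1 and KO 2, against 27.2 and 44.5 CPM in WT 1 and WT 2 (log2 change 1.96 ± 0.37 SE, edgeR adjusted p = 0.00938). Cebpa was at 53.9 and 57.6 CPM against 32.2 and 15.5 CPM in WT (log2 change 1.24 ± 0.32 SE, edgeR adjusted p = 0.0186), was higher by 1.86 without WT 1, and lost its call when KO 1 or KO 2 was left out (edgeR adjusted p = 0.146 and 0.161). Klf15 had a log2 change of -1.84 ± 0.59 SE (edgeR adjusted p = 0.0353) and Nr1h3, the receptor LXR alpha, one of -1.71 ± 0.38 SE (edgeR adjusted p = 0.00748). With limma-voom Klf15 did not pass (-1.55, limma adjusted p = 0.0982). The Klf15 call was lost when WT 1 was left out (-0.79, edgeR adjusted p = 0.391) and when either KO-labelled library was (edgeR adjusted p = 0.146 for KO 1 and 0.188 for KO 2), and its change was -2.45 without WT 2. The Nr1h3 call was lost when KO 2 was left out (edgeR adjusted p = 0.0532).

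Of 12 other secreted and membrane products tested, 2 rose and 3 fell. Nampt, an enzyme of NAD synthesis, had a log2 change of 0.66 ± 0.18 SE (edgeR adjusted p = 0.0192), a call lost when WT 1 or KO 1 was left out (edgeR adjusted p = 0.121 and 0.0675) and with upper quartile scaling (0.47, edgeR adjusted p = 0.0712). Itih5 fell, at 72.4 ± 0.578 CPM against 130 ± 11.1 CPM in WT (edgeR adjusted p = 0.00382). Tusc5, a partner of GLUT4 in fat and muscle, had 4 and 7 counts in KO 1 and KO 2 and 14 in each WT library (edgeR adjusted p = 0.0348). It did not pass with DESeq2 (Wald test adjusted p = 0.138) or without the filter on low counts (edgeR adjusted p = 0.0988). Its call was also lost whichever of the 4 libraries was left out (edgeR adjusted p of 0.113 to 0.232). Adig, adipogenin, which is made in fat, had 4 and 3 counts in KO 1 and KO 2 and 0 in each WT library, too few to test.

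Of 7 receptors tested, 3 rose and 1 fell. C3ar1, the receptor for the complement fragment C3a, which macrophages also carry, was at 124 and 107 CPM in KO 1 and KO 2, against 4.67 and 7.64 CPM in WT 1 and WT 2 (log2 change 4.21 ± 0.26 SE, edgeR adjusted p = 1.74e-05). Irs1, an insulin signalling adaptor, had a log2 change of 1.79 ± 0.43 SE (edgeR adjusted p = 0.0102) that was 2.56 without WT 2, and its call was lost when KO 1 or KO 2 was left out (edgeR adjusted p = 0.0531 and 0.0599). The leptin receptor Lepr, which many cell types carry, fell, at 21.1 and 15.9 CPM against 86.6 and 82.3 CPM in WT (log2 change -2.19 ± 0.21 SE, edgeR adjusted p = 0.000116). Adrb3, the beta adrenergic receptor of fat, had 0 and 1 counts in KO 1 and KO 2 and 0 in each WT library.

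**Figure D3:**
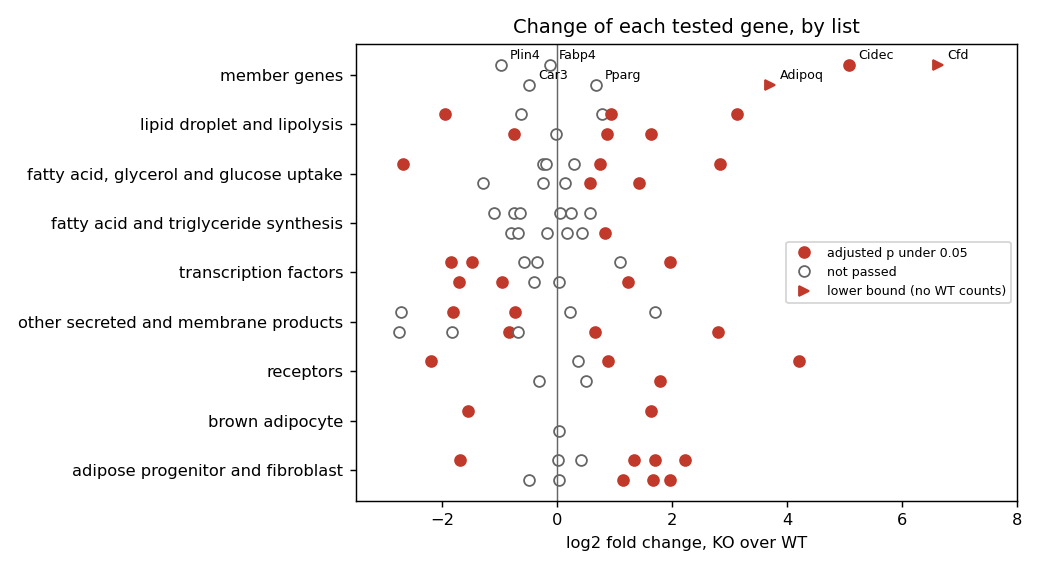
Log2 fold change, KO-labelled over WT, of every tested gene in each list, filled where the edgeR adjusted p is under 0.05. Cfd and Adipoq, with no WT counts, are drawn as triangles at their lower bounds of 6.62 and 3.71, and the other adipocyte lists spread on both sides of 0.

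Of the brown fat markers, Ucp1, the uncoupling protein that defines brown adipocytes, and Cpt1b had 0 counts in all libraries, and the 8 brown adipocyte genes summed to 28.8 and 43.1 CPM in KO 1 and KO 2 and to 29.4 and 34.8 CPM in WT 1 and WT 2. Prdm16, a transcription factor of brown fat, supplied much of that sum, with 73 and 157 counts in KO 1 and KO 2 and 72 and 88 in WT 1 and WT 2, and did not pass (edgeR adjusted p = 0.953). Of 3 tested, 1 rose and 1 fell. Dio2, a thyroid hormone deiodinase, had a log2 change of 1.63 ± 0.53 SE (edgeR adjusted p = 0.0372) that was 2.97 without WT 2, and its call was lost when WT 1 was left out (1.02, edgeR adjusted p = 0.0966), when either KO-labelled library was (edgeR adjusted p = 0.148 for KO 1 and 0.194 for KO 2) and with upper quartile scaling (1.44, edgeR adjusted p = 0.0556). Ppargc1a, a co-activator of mitochondrial genes, fell, with a log2 change of -1.55 ± 0.46 SE (edgeR adjusted p = 0.0258). Its call was lost whichever of the 4 libraries was left out, and with DESeq2 (Wald test adjusted p = 0.0687).

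Markers of other cells moved in the same libraries, in which 22.0% of all tested genes rose and 20.2% fell. Of 11 tested genes of adipose progenitors and fibroblasts, 6 rose and 1 fell, and the list of 12 summed to 2771 and 2218 CPM in KO 1 and KO 2 and to 1689 and 1593 CPM in WT 1 and WT 2. Col15a1, a basement membrane collagen, was at 687 ± 40.7 CPM against 148 ± 1.95 CPM in WT (edgeR adjusted p = 3.63e-05), and Pdgfrb at 203 ± 54.5 CPM against 52.0 ± 2.78 CPM (edgeR adjusted p = 0.000217). Dpp4, a peptidase in this list, fell, at 20.6 ± 0.121 CPM against 66.8 ± 1.91 CPM in WT (edgeR adjusted p = 0.000266). The preadipocyte gene Dlk1 had 3 and 0 counts in KO 1 and KO 2 and 3 and 5 in WT 1 and WT 2.

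Of 15 macrophage genes 13 rose and 1 fell, against 22.0% and 20.2% of all tested genes. Macrophages can also express Fabp4, Pparg, Plin2, Lpl and C3ar1. The macrophage genes summed to 7235 and 5097 CPM in KO 1 and KO 2, against 842 and 751 CPM in WT 1 and WT 2. None of the 15 was at 0 in all libraries. Of 12 endothelial genes 0 rose and 8 fell, with sums of 1074 and 911 CPM in KO 1 and KO 2 against 1855 and 1706 CPM in WT 1 and WT 2. Of 5 mesothelial genes tested 2 rose and 0 fell. The list of 6 summed to 322 and 285 CPM in KO 1 and KO 2, against 24.7 and 15.5 CPM in WT 1 and WT 2, and Msln alone gave 285 and 266 CPM of the sums in KO 1 and KO 2. T and NK cell genes (8) summed to 46.7 and 22.8 CPM against 1094 and 1104 CPM in WT, and B cell genes (8) to 174 and 67.7 CPM against 2313 and 2420 CPM in WT. The part of these cells in the levels of the 10 genes was not tested.

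**Figure D4:**
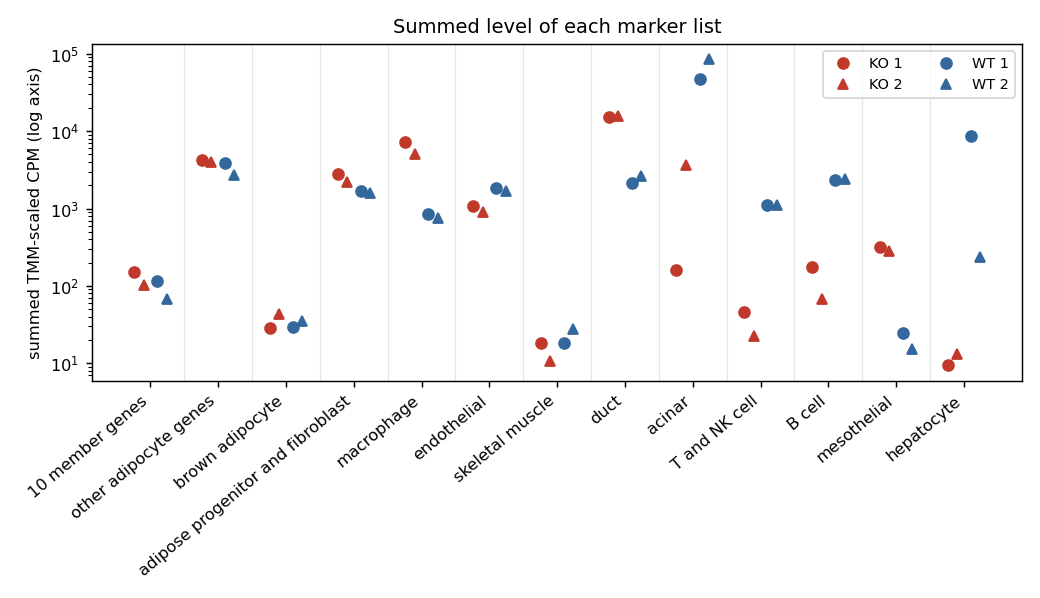
Summed TMM-scaled CPM of each marker list in each library, on a log axis, with KO-labelled libraries in red and WT libraries in blue. The 10 adipocyte genes sum to 68.3 to 153 CPM, of which Fabp4 gives 46.1 to 55.0 CPM in each library and Car3 43.7 CPM in WT 1. Macrophage, duct and mesothelial sums are higher in KO-labelled libraries, acinar, T cell and B cell sums are higher in WT libraries, and the hepatocyte sum is highest in WT 1.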

How the data were processed

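RNA libraries were made from total RNA with a strand-preserving SMARTer kit, per the labels' protocols. Each deposited file gives unnormalized whole-number counts for 1 library, by gene model. The submitters' processing notes name TopHat, edgeR and mm10. No counting program, annotation or use of strand in counting is given in the sources used here. Model spans of all 10 members equalled those of GENCODE M21. Low counts were removed by filterByExpr, TMM factors were computed, and edgeR 4.0.16 in R 4.3.3 gave the tests (robust glmQLFit, glmQLFTest, genotype only, 4 libraries, 13990 genes, 2 residual degrees of freedom), with Benjamini-Hochberg adjustment over all tested genes and a threshold of 0.05. The SE is the log2 change divided by the square root of the F statistic. The procedure was tested on simulated data. Alternatives used DESeq2 1.42.0 and limma 3.58.1. Replicates differed by more than counting noise (chi-square per degree of freedom of 19.98 for KO-labelled and 20.06 for WT libraries). Library totals ranged from 3566387 to 5925601.

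Named genes are the 10 members, up to 2 largest rises and 2 largest falls past the threshold in each adipocyte-related list, and the 5 genes nearest to Cfd once unnamed models were passed over. A gene that this rule names is not reported here. Genes outside this rule are said to be chosen after their values were seen, or are given as counts at or near 0, or belong to marker sums. The members and lists were chosen with earlier results of these data known. The list symbol Ptrf was matched to Cavin1 through RefSeq synonyms. Promoter sequences are from RefSeq (GRCm38.p6).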

Additional observations from a re-analysis of the deposited data

How the results depend on the processing

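Cfd, Adipoq and Cidec were higher in KO-labelled libraries under all 11 alternatives. They passed in each alternative that kept all 4 libraries. The highest adjusted p was 0.00184 for Cfd (limma-voom), 0.00284 for Adipoq (edgeR, upper quartile scaling) and 0.00538 for Cidec (DESeq2 Wald test). With 1 library left out, the log2 change was 9.90 to 10.81 for Cfd, 7.10 to 7.84 for Adipoq and 4.09 to 7.73 for Cidec. All alternatives reuse these libraries, and WT counts of these genes were 0 or 1, so passing them is no separate support. The number of members that rose was 3 to 4 when 1 library was left out (4 without WT 1, Car3 being added) and 3 otherwise, and the number that fell was 0, save 1 (Plin4) with upper quartile scaling, under which all tested genes had a median log2 change of -0.20. Car3 reversed to 1.21 with limma-voom, 0.27 with the replicate block, 4.10 without WT 1 and 0.15 without KO 2, with a range of -1.50 to 4.10 when 1 library was left out. The cause was not tested, beyond WT 1 holding 159 of its 163 WT counts. Among the further adipocyte genes, those that rose numbered 11 to 15 and those that fell 4 to 20 when 1 library was left out. With the replicate block they numbered 17 and 16, and the members 3 and 0. The replicate numbers are not said to pair libraries: deviations of same-numbered libraries correlated at 0.0355 over 13990 genes, which are not independent. Genes past the threshold numbered 5011 to 6730 under the other settings and 4206 to 4608 when 1 library was left out, against 5909. Of the values of single genes under an alternative, 353 kept direction and call, 38 no longer passed, Plin4 with upper quartile scaling newly passed, and the other 4 are the reversals of Car3, which passed without WT 1 (adjusted p = 0.0317). With no filter the median of all genes was -0.11. Low counts kept Retn, Lep, Plin1 and Adig out of the filtered test.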
